A study of Mus musculus with 60 samples.

Results

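Voltage-gated calcium channels open when the membrane depolarises and let calcium into the cell, and each has one large pore-forming alpha-1 subunit that sets its voltage range and pharmacology. The genes described here are the 8 pore subunit genes Cacna1a, Cacna1b, Cacna1c, Cacna1d, Cacna1e, Cacna1g, Cacna1h and Cacna1i, taken by their gene names from the 55414 genes of the deposited count table. The samples were 60 RNA-seq libraries of medial prefrontal cortex (mPFC) from DBA2/J mice carrying GFP-L10a, a ribosomal protein fused to a green fluorescent protein, which lets ribosomes and the RNA on them be pulled down with an antibody against GFP. In all, 30 libraries came from such a pulldown (IP) and are labelled as the cell type aPVT projector, and 30 came from bulk mPFC without antibody (Input). Each fraction held 5 groups of 6 libraries, labelled SA, SA:ANH, ANH, RES and NS. The first 4 are called subtypes, the design text gives 5 days of social defeat stress, and the labels neither spell out the group names nor say which groups were defeated. Strain, tissue and the GFP-L10a fusion were common to all groups. The driver of GFP-L10a, the age and sex of the mice and any pooling of animals were not stated, so the replicates may be technical, and p-values measure the spread between these libraries.

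The pore subunits fall into families by the voltage at which they open. Cacna1a (P/Q-type), Cacna1b (N-type) and Cacna1e (R-type) form high-voltage-activated channels that feed calcium to transmitter release at nerve terminals and to dendrites. Cacna1c and Cacna1d form L-type channels, which link activity in the cell body and dendrites to gene transcription. Cacna1g, Cacna1h and Cacna1i form the low-voltage-activated T-type channels, which open near the resting potential, inactivate quickly and help neurons fire in bursts. High-voltage channels work with beta and alpha2delta auxiliary subunits, whereas T-type pores can conduct without them.

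Library totals were 19078928 to 27073456 counts, and all 8 genes passed the filter on low counts in every fit. In IP against Input, the 6 markers of layer 5 extratelencephalic neurons (Bcl11b, Fezf2, Pou3f1, Parm1, Npr3, Crym) were all higher, 4 of 6 excitatory markers were higher, and all 6 inhibitory, 6 oligodendrocyte, 6 astrocyte and 6 microglial markers were lower. Of 6 layer 6 corticothalamic markers, 1 was higher and 5 were lower. In Input, the 6 NS libraries stood apart from the other 24 on the first principal component of 1000 genes (24.6 to 27.4, against -9 to -0.545). In IP, computed on its own, NS held 0.0626 to 4.97 on that component, SA -24.3 to -17.1, SA:ANH -14.2 to -7.96, ANH 8.97 to 17.2 and RES 14 to 17.1, so NS overlapped no subtype there either. Each comparison with NS in either fraction is thus one between libraries that stand apart. In IP this was not particular to NS, since SA and SA:ANH also overlapped no other group and only ANH and RES overlapped. The component held 9.36% of the variance in IP and 9.39% in Input. The labels name no batch.

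Gene positions follow the deposited table, and the genome build behind them was not stated. Among the T-type genes, Cacna1g (ENSMUSG00000020866.18) lay on chromosome 11 from 94299217 to 94365024 (minus strand), Cacna1h (ENSMUSG00000024112.17) on chromosome 17 from 25593259 to 25652757 (minus strand) and Cacna1i (ENSMUSG00000022416.16) on chromosome 15 from 80171439 to 80282480 (plus strand). Cacna1e (ENSMUSG00000004110.18), the member with the highest IP counts, lay on chromosome 1 from 154266477 to 154760247 (minus strand). The counts are per whole gene and do not separate exons or splice forms. A RefSeq promoter table of the build GRCm38.p6 held entries for 5 of the 8 genes. The 250 bases before the annotated start are shown for the T-type gene with an entry, Cacna1i, and for Cacna1e, whose pulldown level was the highest, so that a pore gene that differed between groups in IP can be set beside one that did not pass there. The Cacna1i entry is the outermost start of the gene in RefSeq, whereas the Cacna1e entry is an internal one, 158865 bases inside the outer end of the gene's span (154390806 to 154884785 in that build), and no entry for the outermost Cacna1e start was used here. Capitals mark the letters TGACG, the core of the cyclic AMP response element (CRE), on either strand.
Cacna1i (chr15:80286988-80287237, plus strand): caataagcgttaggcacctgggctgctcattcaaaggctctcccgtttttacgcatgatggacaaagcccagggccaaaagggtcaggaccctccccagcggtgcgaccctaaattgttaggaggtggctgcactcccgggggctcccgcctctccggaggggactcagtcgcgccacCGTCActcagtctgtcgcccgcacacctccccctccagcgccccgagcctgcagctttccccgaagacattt
Cacna1e (chr1:154725921-154726170, minus strand): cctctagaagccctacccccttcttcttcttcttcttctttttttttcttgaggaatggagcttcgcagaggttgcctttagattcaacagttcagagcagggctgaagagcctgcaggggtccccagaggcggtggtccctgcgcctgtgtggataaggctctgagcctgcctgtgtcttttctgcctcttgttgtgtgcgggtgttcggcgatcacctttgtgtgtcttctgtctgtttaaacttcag
The Cacna1i stretch held 1 such match, written CGTCA on the strand shown and 72 bases before the start, and the Cacna1e stretch held 0. Of 32851 mouse promoter stretches of this length 17.8% hold TGACG, and 3 of the 8 entries of the pore genes did. GC content was 62.4% for Cacna1i and 52.0% for Cacna1e, against a median of 52.4%. These matches describe the letters, not factor binding, and say nothing of the other Cacna1e starts.

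All 8 pore genes were detected in every library. Levels between genes are given as CPM (counts scaled to library size with TMM factors) per kilobase of the table's gene length, as mean ± SD over the 30 libraries of a fraction. In IP, Cacna1e (5.58 ± 0.469) and Cacna1a (5.51 ± 0.584) were highest, followed by the T-type genes Cacna1g (4.56 ± 0.738), Cacna1i (4.41 ± 0.494) and Cacna1h (4.26 ± 0.769). Cacna1b (2.76 ± 0.396), Cacna1d (1.85 ± 0.280) and Cacna1c (1.84 ± 0.220) were lower. Input had another order: Cacna1a led (5.22 ± 0.586), then came Cacna1g (3.59 ± 0.428), Cacna1i (3.04 ± 0.353), Cacna1h (2.36 ± 0.394), Cacna1e (2.15 ± 0.235), Cacna1d (1.92 ± 0.229), Cacna1b (1.81 ± 0.267) and Cacna1c (0.724 ± 0.147). In each fraction mean ± SD overlapped for 5 of the 7 neighbouring pairs in these orders, and differences between genes were not tested. By whole gene spans, introns included, Cacna1c overlaps Dcp1b and Cacna1d overlaps Dcp1a on the opposite strand. The total counts of Dcp1b and Dcp1a were 62.5% and 57.8% of the member's own. Since no strand setting is given, reads from stretches that both genes share may not be told apart. How many reads fell there was not measured.

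All 3 T-type genes differed among the 5 groups in IP and none of the 5 high-voltage genes passed that test. With edgeR's quasi-likelihood test and Benjamini-Hochberg adjustment over 16670 genes, 3 of 8 members were called in the test of any difference, against 33.1% of all genes. The adjusted p-values were 5.14e-05 for Cacna1g, 2.37e-05 for Cacna1h and 0.000308 for Cacna1i. Among the high-voltage genes they were 0.282 to 0.544, with 0 of 5 under an unadjusted 0.05 and 0 of 5 called by DESeq2 or limma voom. The T-type genes did not move together: Cacna1g rose, Cacna1h and Cacna1i fell, and each in its own set of groups. The count of 3 of 8 members is near the 33.1% of all genes, so it is no result about the members as a set. Whether the T-type and high-voltage families differ was not tested.

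**Figure D1:**
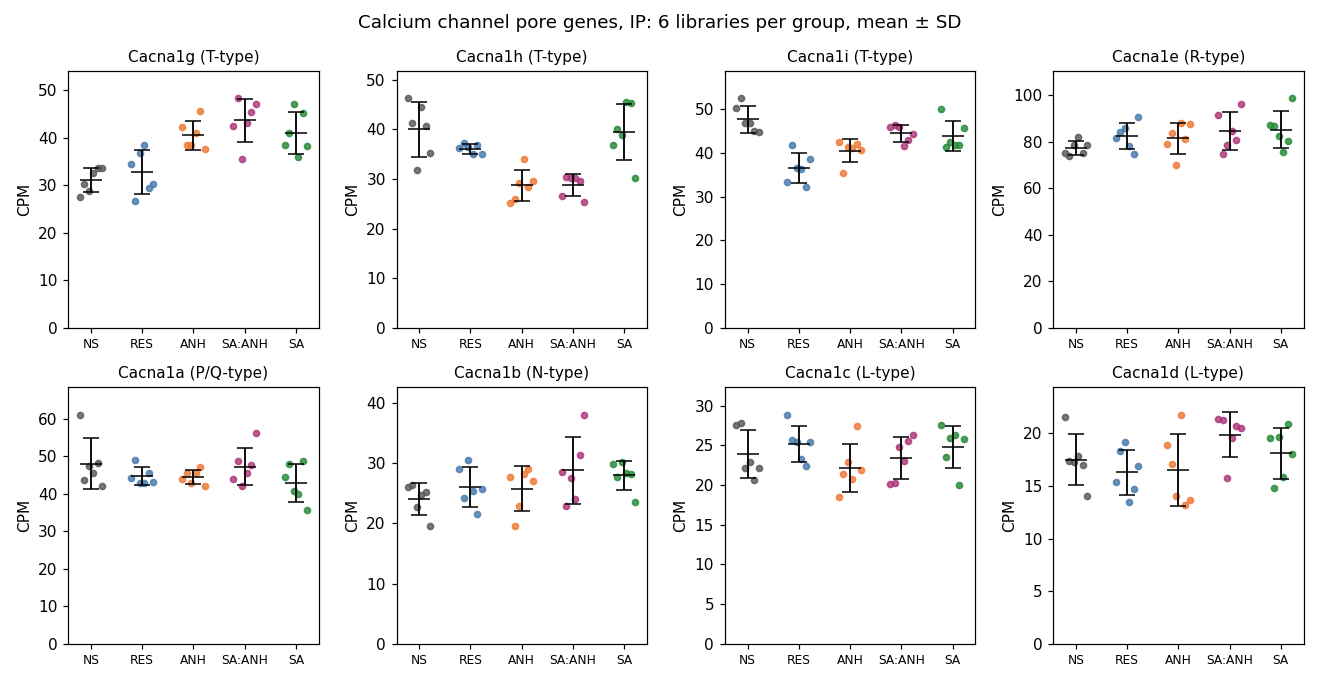
CPM of the 8 pore genes in the pulldown (y axis, from 0) by group (x axis), with 1 point per library, 6 per group, and bars for mean ± SD. Cacna1g is higher in ANH, SA:ANH and SA than in NS, Cacna1h is lower in ANH and SA:ANH, and Cacna1i is lowest in RES, while every subtype overlaps NS for the other 5 genes.

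Cacna1g, the T-type pore prominent in thalamic relay cells and also found in cortex, rose in the SA, SA:ANH and ANH pulldowns. In NS_IP its libraries ran from 27.6 through a median of 31.5 to 33.7 CPM. RES_IP spanned 26.7 to 38.5 with a median of 32.4, ANH_IP 37.6 to 45.6 with a median of 39.7, SA_IP 36.0 to 47.2 with a median of 39.7, and SA:ANH_IP 35.6 to 48.3 with a median of 44.3. Every library of ANH, SA and SA:ANH lay above every NS library, and RES overlapped NS. The log2 fold change against NS was 0.40 ± 0.09 (SE, n = 6 against 6) in SA (32.1% higher, adjusted p = 0.00148), 0.49 ± 0.09 in SA:ANH (40.6% higher, adjusted p = 8.72e-05) and 0.38 ± 0.09 in ANH (30.6% higher, adjusted p = 0.00523). In RES it was 0.07 ± 0.09 (adjusted p = 0.773). The 4 comparisons share the 6 NS libraries. In RNA taken from many cells, as in both fractions, a change in cell numbers and one in RNA per cell cannot be told apart.

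Between subtypes, Cacna1g was lower in RES than in each of the other 3: SA exceeded RES by 0.33 (log2, adjusted p = 0.0125), SA:ANH by 0.42 (adjusted p = 0.00104) and ANH by 0.31 (adjusted p = 0.0238). In the order of means (SA:ANH, SA, ANH, RES, NS), the step from ANH to RES passed the test, while SA:ANH and SA (adjusted p = 0.649), SA and ANH (0.925), and RES and NS (0.773) did not differ beyond their spread. Summed levels of 4 haemoglobin genes in IP, markers of blood, were 14.4 to 23.2 CPM in NS, 21.5 to 34.5 in RES, 23.1 to 27.2 in ANH, 38.2 to 50.4 in SA and 41.6 to 51.6 in SA:ANH, with 3, 4 and 3 of 4 called higher than NS in SA, SA:ANH and ANH and 2 of 4 in RES. The shares of all genes called against NS in IP were 16.6% in SA, 19.7% in SA:ANH, 7.40% in ANH and 4.36% in RES. In Input the haemoglobin sums were 862 to 933 CPM in NS and 1170 to 1390 in RES. They were 1483 to 1571 in ANH, 1449 to 1614 in SA and 1434 to 1599 in SA:ANH. The part of the haemoglobin genes in the Cacna1g result was not tested.

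Cacna1h, a T-type pore known for its block by low concentrations of nickel, fell in the SA:ANH and ANH pulldowns. NS_IP libraries ran from 31.8 through a median of 41.1 to 46.3 CPM, and SA_IP was much like it at 30.3 to 45.6 (median 39.4). RES_IP was tightly grouped at 35.0 to 37.3 (median 36.3). SA:ANH_IP held 25.3 to 30.5 (median 29.8) and ANH_IP 25.1 to 34.1 (median 28.7). All SA:ANH libraries lay below all NS libraries, and the ANH libraries overlapped NS in part of their range. The log2 fold change against NS was -0.48 ± 0.09 (SE, n = 6 against 6; 28.2% lower) in both SA:ANH (adjusted p = 0.00022) and ANH (adjusted p = 0.000849). It was -0.02 ± 0.09 in SA (adjusted p = 0.929, 95% interval -0.20 to 0.16) and -0.15 ± 0.09 in RES (adjusted p = 0.486).

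The subtype pairs split Cacna1h the same way. SA exceeded SA:ANH by 0.46 (log2, adjusted p = 0.000758) and ANH by 0.46 (adjusted p = 0.000323). RES exceeded both too, with SA:ANH lower than RES by a log2 difference of -0.33 (adjusted p = 0.0135) and ANH by -0.33 (adjusted p = 0.0205, and 0.0517 without ANH_IP replicate 2). In the order NS, SA, RES, ANH, SA:ANH, the step from RES to ANH passed, and NS with SA (0.929), SA with RES (0.457) and ANH with SA:ANH (1) did not. Summed levels of the 6 layer 5 extratelencephalic markers lay outside the NS range in all 4 subtypes, above it in SA and below it in the other 3, while Cacna1h passed against NS in ANH and SA:ANH. The sums were 977 to 1068 CPM in NS, 1097 to 1224 in SA, 895 to 962 in RES, 696 to 767 in ANH and 592 to 669 in SA:ANH. Against NS, 6 of 6 were lower in SA:ANH and 5 of 6 in ANH, 1 of 6 in RES, and in SA 4 were higher and 1 lower. Of all genes, 19.7% were called against NS in SA:ANH_IP, 7.40% in ANH_IP, 4.36% in RES_IP and 16.6% in SA_IP. No marker of the list was at 0. In Input the sums of every subtype overlapped NS, at 500 to 566 CPM in SA:ANH and 513 to 549 in ANH against 524 to 550. The part of these markers in the Cacna1h result was not tested.

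Cacna1i, the T-type pore with the slowest kinetics of the family, fell in RES and ANH. NS_IP libraries ran from 44.8 through a median of 46.9 to 52.5 CPM. RES_IP held 32.2 to 41.8 (median 36.3) and ANH_IP 35.3 to 42.6 (median 41.3), with no overlap with NS in either. SA_IP (41.4 to 50.1, median 42.3) and SA:ANH_IP (41.6 to 46.3, median 45.1) overlapped NS. The log2 fold change against NS was -0.39 ± 0.07 (SE, n = 6 against 6; 23.6% lower) in RES, with an adjusted p of 0.000365. In ANH it was -0.24 ± 0.07 (15.1% lower, adjusted p = 0.0272), and this call was lost without ANH_IP replicate 2 (adjusted p = 0.0905) and without NS_IP replicate 1 (adjusted p = 0.0601). It was -0.12 ± 0.07 in SA (adjusted p = 0.256) and -0.10 ± 0.07 in SA:ANH (adjusted p = 0.339).

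Cacna1i was also lower in RES than in SA (SA above RES by 0.27, log2, adjusted p = 0.00723) and than in SA:ANH (by 0.29, adjusted p = 0.00318). No neighbouring step in the order NS, SA:ANH, SA, ANH, RES passed, with adjusted p-values of 0.339, 0.924, 0.251 and 0.181. Summed levels of the 6 oligodendrocyte markers in IP were 242 to 289 CPM in NS, 638 to 670 in ANH and 934 to 1043 in RES, with 6 of 6 higher than NS in both, and 207 to 234 in SA and 145 to 177 in SA:ANH. Summed inhibitory neuron markers were 60 to 75.4 CPM in NS, 89.3 to 107 in ANH and 117 to 126 in RES, with 1 of 6 called higher in each of the last 2. In SA_IP they were 35.6 to 42.6 CPM, below all NS libraries, and in SA:ANH_IP 56.4 to 71.0. Of all genes, 7.40% were called against NS in ANH_IP and 4.36% in RES_IP. In Input the oligodendrocyte sums were also higher than in NS (2459 to 2614 CPM), at 4225 to 4339 in ANH and 3619 to 3747 in RES. They were 3012 to 3141 in SA and 2662 to 2861 in SA:ANH. The inhibitory sums in Input were 969 to 1018 in NS, 909 to 949 in ANH and 899 to 965 in RES. They were 886 to 938 in SA and 868 to 939 in SA:ANH. The part of these markers in the Cacna1i result was not tested.

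**Figure D2:**
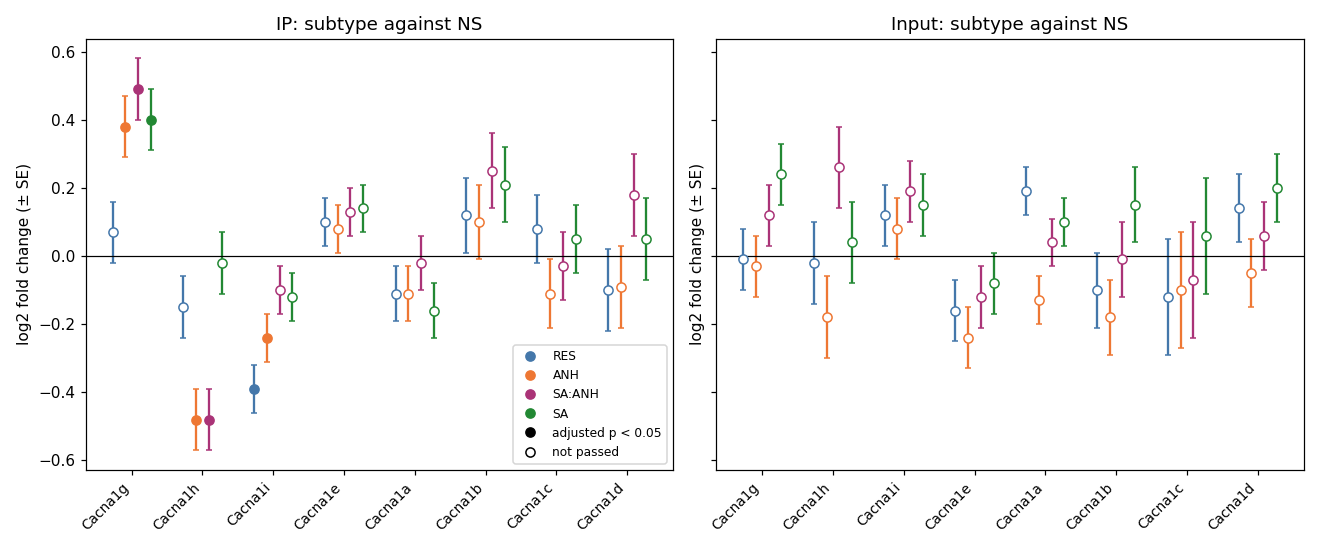
Log2 fold change of each subtype against NS (y axis, ± SE, 6 against 6 libraries) for the 8 pore genes (x axis) in the pulldown (left) and in bulk mPFC (right), with filled points for an adjusted p under 0.05. The 7 filled points are all in the pulldown and belong to Cacna1g, Cacna1h and Cacna1i.

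Over the 4 subtypes against NS in IP, the 3 T-type genes gave 7 calls in 12 tests, 3 higher and 4 lower. By comparison, 1 of 8 members was called in SA (16.6% of all genes), 2 in SA:ANH (19.7%), 3 in ANH (7.40%) and 1 in RES (4.36%). The 5 high-voltage genes gave 0 calls in 20 tests with edgeR, as with DESeq2 and limma voom, and 2 of the 20 had an unadjusted p under 0.05. Over the 6 subtype pairs, 9 of 48 tests were called, all for T-type genes, with 9.53% of all genes called for SA with SA:ANH, 23.0% for SA with ANH, 11.6% for SA with RES, 17.9% for SA:ANH with ANH, 13.8% for SA:ANH with RES and 9.21% for ANH with RES. SA:ANH and ANH gave 0 of 8 (1 of 8 at an unadjusted p under 0.05), and DESeq2 and limma voom also called 9 over all pairs. The 9 calls in 48 tests lay within the range of these shares, so they are no result about the members as a set. The split of the calls by family was not tested.

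None of the 5 high-voltage genes passed against NS in the pulldown. Cacna1e, the R-type pore, ran from 73.8 to 82.2 CPM (median 76.9) in NS_IP and from 75.7 to 98.7 (median 84.6) in SA_IP, where its log2 fold change was 0.14 ± 0.07 (adjusted p = 0.16, 95% interval 0.01 to 0.27). Cacna1b, the N-type pore of many presynaptic terminals, ran from 19.5 to 26.4 CPM (median 25.0) in NS_IP and from 22.9 to 38.1 (median 28.0) in SA:ANH_IP, a log2 fold change of 0.25 ± 0.11 (adjusted p = 0.117, 95% interval 0.03 to 0.47). These 2 were the tests with an unadjusted p under 0.05, and in both the groups overlapped. Cacna1a, the P/Q-type pore that carries much of the calcium for fast release, had medians of 42.6 to 46.7 CPM over the 5 IP groups and log2 fold changes of -0.16 to -0.02 against NS. Cacna1c had medians of 21.6 to 25.8 and fold changes of -0.11 to 0.08, and Cacna1d, which opens at less depolarised voltages than Cacna1c, medians of 15.6 to 20.6 and fold changes of -0.10 to 0.18. The 95% intervals of the 20 log2 fold changes of these genes lay within -0.35 to 0.47, with SEs of 0.07 to 0.12, so differences of that size are not excluded.

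Fewer tests passed in bulk mPFC. Against NS, 0 of 8 members were called in each subtype by edgeR, DESeq2 or limma voom (2, 1, 1 and 1 of 8 at an unadjusted p under 0.05 in SA, SA:ANH, ANH and RES), with 2.83%, 5.65%, 2.62% and 3.23% of all 18170 genes called. In the test of any difference, 1 of 8 members was called (12.9% of all genes): Cacna1a, with an adjusted p of 0.0224. That count is near the share of all genes and so is no result about the members as a set. DESeq2 called 3 in that test. Over the subtype pairs 4 of 48 tests passed, 2 for Cacna1a and 1 each for Cacna1g and Cacna1h.

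**Figure D3:**
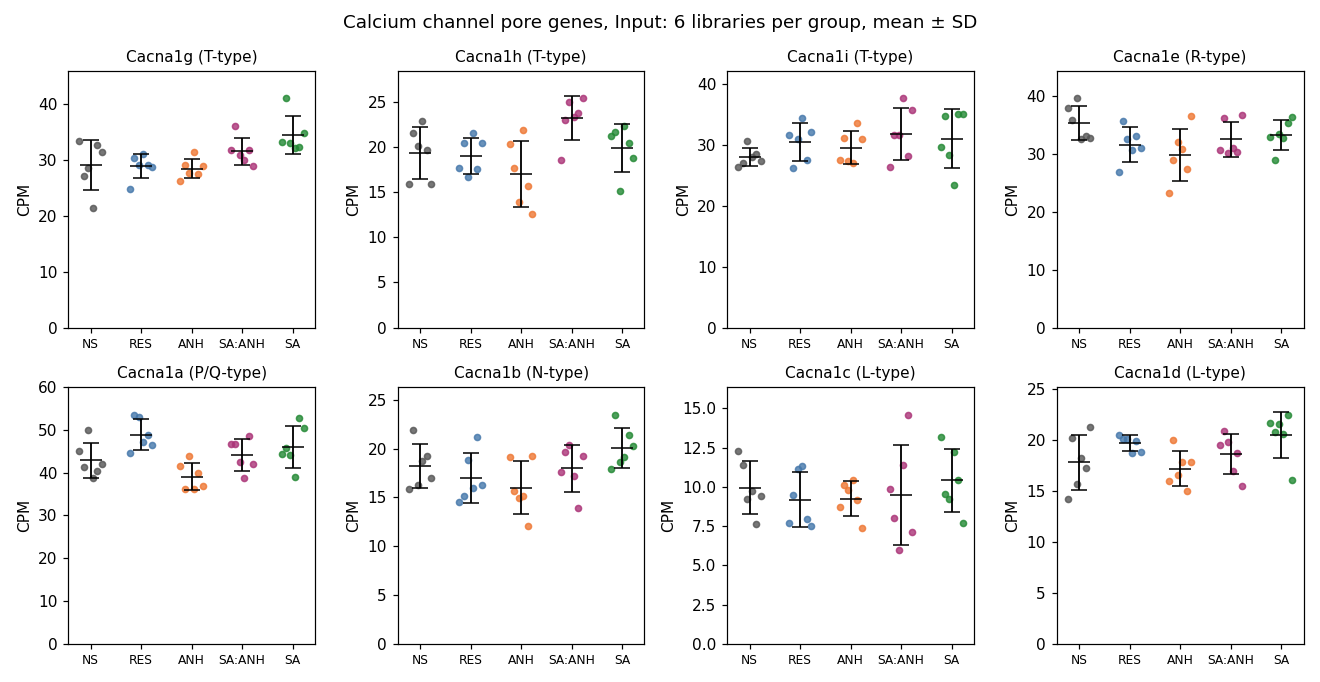
CPM of the 8 pore genes in bulk mPFC (y axis, from 0) by group (x axis), with 1 point per library, 6 per group, and bars for mean ± SD. Cacna1a is lowest in ANH and highest in RES, and every subtype overlaps NS for all 8 genes.

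Cacna1a in Input ran from 36.3 to 43.8 CPM (median 38.5) in ANH, 38.7 to 50 (median 41.8) in NS, 38.8 to 48.6 (median 44.5) in SA:ANH, 39.1 to 52.7 (median 45) in SA and 44.6 to 53.6 (median 48) in RES. All RES libraries lay above all ANH libraries, and no neighbouring step in the order of means passed the test. ANH was below RES by a log2 difference of -0.32 (adjusted p = 0.00801, 4.22% of all genes called) and below SA by 0.23 (adjusted p = 0.0423, 7.88% called). The SA call for Cacna1a was lost without SA_Input replicate 6 (adjusted p = 0.0946) and without SA_Input replicate 2 (0.053). Cacna1g was higher in SA_Input than in ANH_Input by 0.27 (adjusted p = 0.0415), at 32.2 to 41.1 against 26.3 to 31.5 CPM with no overlap, and this call was lost without SA_Input replicate 2 (0.114) and without SA_Input replicate 6 (0.0572). Cacna1h was higher in SA:ANH_Input, at 18.6 to 25.4 CPM, than in ANH_Input, at 12.6 to 21.9, by 0.45 (adjusted p = 0.0453, 1.64% called), and the groups overlapped. The other pairs, SA with SA:ANH (3.54% called), SA with RES (1.10%) and SA:ANH with RES (0.693%), gave 0 of 8, with 0, 2 and 1 of 8 at an unadjusted p under 0.05. Over all 6 pairs DESeq2 called 6 and limma voom 3. Summed oligodendrocyte markers in Input were highest in ANH (4225 to 4339 CPM, against 3619 to 3747 in RES and 2459 to 2614 in NS). Their part in the Cacna1a result was not tested.

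Cacna1g, Cacna1h and Cacna1i did not pass against NS in Input. Cacna1g, which rose in the pulldown, had a log2 fold change of 0.24 ± 0.09 in SA_Input (18.3% higher, unadjusted p = 0.00756, adjusted p = 0.133). It was 0.12 ± 0.09 in SA:ANH_Input (adjusted p = 0.516) and -0.03 ± 0.09 in ANH_Input (adjusted p = 0.916). Cacna1i and Cacna1h had fallen in the pulldown. The Input libraries of Cacna1i were at 26.4 to 30.6 CPM (median 27.7) in NS, 26.1 to 34.3 (median 31.2) in RES and 27 to 33.6 (median 29.2) in ANH, so that RES was 0.12 ± 0.09 above NS on the log2 scale (adjusted p = 0.583). The Input values of Cacna1h in NS (15.9 to 22.9, median 19.9) and SA:ANH (18.6 to 25.4, median 23.5) overlapped, at a log2 fold change of 0.26 ± 0.12 (adjusted p = 0.213).

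The pulldown was enriched for most pore genes over bulk mPFC. In the mean over the 5 groups, 7 of 8 members were higher in IP and 0 lower, where 32.8% of all 18937 genes were called higher and 75.4% called in either direction. The median log2 difference was 0.57 over the members and -0.08 over all genes tested. Cacna1e was 2.59-fold higher, at 83.2 CPM in IP and 32.1 in Input (log2 1.38 ± 0.03, adjusted p = 6.12e-42), and Cacna1c 2.54-fold, at 24.2 and 9.53 CPM (1.34 ± 0.06, adjusted p = 6.22e-28). Over the 30 libraries of each fraction, neither gene's ranges overlapped, with 71.2 to 100 CPM in IP and 23.0 to 39.1 in Input for Cacna1e and 18.9 to 29.4 and 5.84 to 14.4 for Cacna1c. The other L-type gene, Cacna1d, did not pass (17.9 and 18.5 CPM, log2 -0.05 ± 0.05, adjusted p = 0.358).

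The T-type genes had smaller fold changes than Cacna1e and Cacna1c and larger ones than Cacna1a and Cacna1d. Cacna1h was 1.79-fold higher in IP (log2 0.84 ± 0.05, adjusted p = 9.54e-24) with no overlap between fractions, Cacna1i 1.45-fold (0.53 ± 0.04, adjusted p = 2.76e-20) and Cacna1g 1.26-fold (0.34 ± 0.04, adjusted p = 1.68e-11). Cacna1b was 1.53-fold higher (0.61 ± 0.05, adjusted p = 2.29e-16). Cacna1a was 1.06-fold higher (0.08 ± 0.04, adjusted p = 0.0375), a call that was lost with RLE scaling (0.03, adjusted p = 0.379) and with DESeq2 (0.03, adjusted p = 0.383). Differences in enrichment between genes were not tested.

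**Figure D4:**
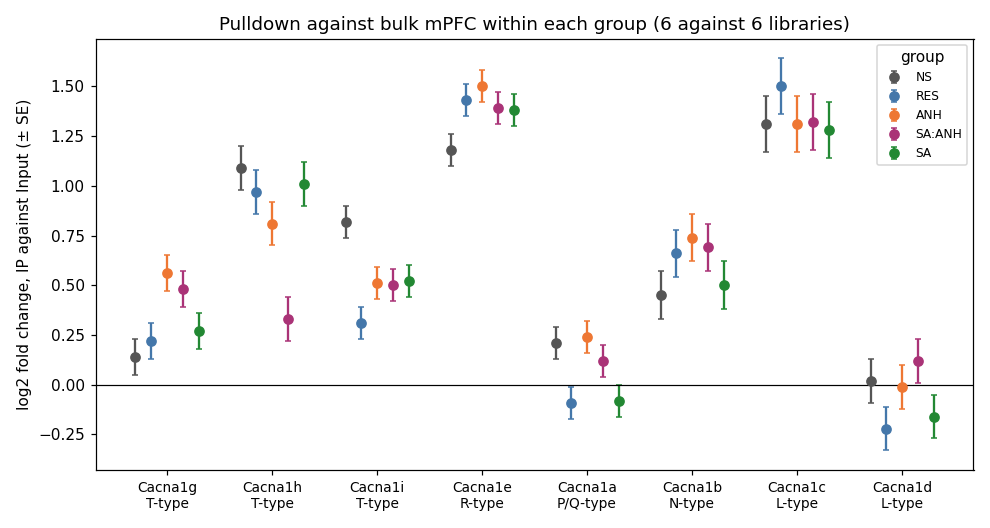
Log2 fold change of the pulldown against bulk mPFC (y axis, ± SE, 6 against 6 libraries) for the 8 pore genes (x axis), with 1 colour per group. Cacna1e and Cacna1c lie between 1.18 and 1.5 in every group, Cacna1h falls to 0.33 in SA:ANH, and Cacna1d stays between -0.22 and 0.12.

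Within single groups, 31 of 40 tests of IP against Input were called, all higher in IP, made up of 6 of 8 members in SA (55.8% of all genes called, 25.1% higher), SA:ANH (55.4%, 25.4% higher), RES (52.8%, 24.0% higher) and NS (52.8%, 24.2% higher) and 7 in ANH (52.8%, 23.8% higher). The enrichment of Cacna1e ran from 1.18 ± 0.08 in NS to 1.5 ± 0.08 in ANH and that of Cacna1c from 1.28 ± 0.14 in SA to 1.5 ± 0.14 in RES. Cacna1h ran from 1.09 ± 0.11 in NS to 0.33 ± 0.11 in SA:ANH, Cacna1i from 0.82 ± 0.08 in NS to 0.31 ± 0.08 in RES, and Cacna1g from 0.14 ± 0.09 in NS (adjusted p = 0.19) to 0.56 ± 0.09 in ANH.

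Whether a subtype's difference from NS was unlike in the 2 fractions was tested directly as an interaction, the log2 fold change against NS in IP minus that in Input. Of 32 tests 4 passed with edgeR, all for T-type genes. Cacna1h in SA:ANH gave -0.77 ± 0.15 (adjusted p = 0.000153), and Cacna1g in SA:ANH gave 0.35 ± 0.12 (adjusted p = 0.0436), so 2 of 8 members were called there (15.2% of all genes). Cacna1g in ANH gave 0.43 ± 0.12 (adjusted p = 0.0362, 1 of 8 members, 3.62% of all genes) and Cacna1i in RES gave -0.51 ± 0.12 (adjusted p = 0.00519, 1 of 8, 2.69%). In SA 0 of 8 passed (9.05% of all genes, 2 of 8 at an unadjusted p under 0.05), and Cacna1g gave 0.14 ± 0.12 there (adjusted p = 0.586). Cacna1h in ANH, which fell in IP, gave -0.29 ± 0.15 (adjusted p = 0.332), and its Input fold change against NS was -0.18 ± 0.12. The high-voltage genes gave 0 calls in 20 such tests with edgeR, with 5 at an unadjusted p under 0.05. Over the 32 tests DESeq2 called 5 and limma voom 4, and both included calls that edgeR did not make and that are not named here. Among the tests not passed with edgeR, the lowest adjusted p-values were 0.0528 for Cacna1i in SA:ANH and 0.0771 for Cacna1e in ANH. Both Cacna1g calls were lost without the filter on low counts (adjusted p = 0.064 in SA:ANH and 0.0748 in ANH), and limma voom also lost the call in SA:ANH (adjusted p = 0.0613).

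The genes that work with the pores were followed in 8 lists. For their counts in IP against Input, the shares of all genes were 32.8% called higher and 75.4% called in either direction. Differences of the lists from those shares were not tested. The pore genes of muscle and retina, Cacna1s and Cacna1f, were near the limit of detection: Cacna1f was left out by the filter, with medians of 0.0422 to 0.226 CPM in IP, and Cacna1s had medians of 0.167 to 0.881 CPM and was lower in IP than in Input (log2 -0.78 ± 0.34, adjusted p = 0.0362). Beta subunits, which bring high-voltage pores to the membrane, were higher in IP for 3 of 4 and lower for 1. Cacnb4 was 1.17 ± 0.03 higher (log2), Cacnb1 0.48 ± 0.02 and Cacnb3 0.47 ± 0.02, and Cacnb2 was lower at -0.12 ± 0.06 (adjusted p = 0.0434). Of the alpha2delta subunits, which raise the number of channels at the surface, 2 of 4 were higher and 1 lower, with Cacna2d1 at 1.42 ± 0.03, Cacna2d3 at 0.39 ± 0.03 and Cacna2d2 at -1.14 ± 0.10.

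Over all 8 lists, the calls against NS in IP were 16 of 58 genes tested in SA (27.6%, against 16.6% of all genes), 20 of 58 in SA:ANH (34.5%, against 19.7%), 10 of 58 in ANH (17.2%, against 7.40%) and 4 of 58 in RES (6.9%, against 4.36%). The counts of single lists below are read against those shares of all genes, and the difference from them was not tested. Auxiliary subunits also differed between groups in IP. Among the 4 beta subunits, 1 fell in SA, 1 rose in SA:ANH, 1 rose in ANH and 0 passed in RES, and a count of 1 in so short a list is no result about it. Cacnb4 had medians of 167 CPM in NS, 203 in SA:ANH and 206 in ANH, log2 fold changes of 0.23 ± 0.05 (adjusted p = 0.00205) and 0.27 ± 0.05 (adjusted p = 0.000991), and its 6 ANH libraries (184 to 216) lay above all NS libraries (159 to 178). Cacnb2 was lower in SA by a log2 fold change of -0.42 ± 0.12 (adjusted p = 0.0129). Of the 4 alpha2delta subunits, 1 rose and 1 fell in SA:ANH, 1 fell in ANH and 0 passed in SA and RES. Cacna2d3 fell in SA:ANH, at 64.8 to 82.5 CPM against 82.0 to 104 in NS (-0.40 ± 0.07, adjusted p = 2.49e-05), and in ANH (-0.25 ± 0.07, adjusted p = 0.0157). Cacna2d1 rose in SA:ANH, at 113 to 162 against 98.5 to 109 CPM (0.35 ± 0.07, adjusted p = 0.000373).

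The gamma family includes the TARPs, proteins better known for carrying AMPA receptors to the synapse. Of 7 tested, 3 were higher and 2 lower in IP than in Input. Against NS in IP, 1 rose and 1 fell in SA, 2 rose and 1 fell in SA:ANH, 2 rose and 1 fell in ANH, and 1 rose in RES. Cacng2 (stargazin) had log2 fold changes of 0.74 ± 0.11 in SA:ANH (adjusted p = 6.52e-06), 0.73 ± 0.11 in ANH (adjusted p = 4.48e-05) and 0.59 ± 0.11 in RES (adjusted p = 0.00124). Cacng3 fell in SA (-0.20 ± 0.04, adjusted p = 0.000695), and rose in SA:ANH (0.25 ± 0.04, adjusted p = 1.28e-05) and ANH (0.20 ± 0.04, adjusted p = 0.0015). Its libraries were at 244 to 276 CPM in SA, 274 to 310 in NS, 318 to 389 in ANH and 337 to 363 in SA:ANH, so SA overlapped NS at the edge and the other 2 did not.

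Among 18 regulators of the channels, 13 were higher and 4 lower in IP than in Input. Of the 17 tested within IP, 4 rose and 3 fell in SA, 6 rose and 1 fell in SA:ANH, and 1 rose and 1 fell in each of ANH and RES. Cabp1, a calcium-binding protein that slows the calcium-dependent inactivation of L-type channels, fell in SA (-0.36 ± 0.05, adjusted p = 2.48e-06), ANH (-0.29 ± 0.05, adjusted p = 0.000255) and RES (-0.19 ± 0.05, adjusted p = 0.0255), whereas in Input it was higher in SA (0.26 ± 0.05, adjusted p = 0.00364) and RES (0.28 ± 0.05, adjusted p = 0.00124). Ppp3ca, a catalytic subunit of calcineurin, was 1.46 ± 0.02 higher in IP than in Input, fell in SA (-0.14 ± 0.03, adjusted p = 0.00241) and rose in SA:ANH (0.21 ± 0.03, adjusted p = 7.67e-06). Its RES_IP libraries (947 to 1036 CPM) also lay above all NS_IP libraries (859 to 910), and ANH_IP held 892 to 1017.

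The last 3 lists hold channels and pumps that respond to calcium or move it between stores, cytosol and the outside. Of 5 calcium-activated potassium channel genes tested in IP, 1 rose and 1 fell in SA, 1 rose and 2 fell in SA:ANH, and 0 passed in ANH or RES. Kcnn2, a small-conductance channel of the afterhyperpolarisation, fell in SA:ANH (-0.51 ± 0.10, adjusted p = 0.000263), and Kcnmb4, a beta subunit of the large-conductance channel, rose in SA (0.30 ± 0.05, adjusted p = 0.000138) and SA:ANH (0.19 ± 0.05, adjusted p = 0.0114). Of 11 store channel and sensor genes, 2 fell in SA, 1 rose and 1 fell in SA:ANH, 1 fell in ANH and 0 passed in RES, which is near the 16.6%, 19.7%, 7.40% and 4.36% of all genes and so no result about the list. Stim2 (-0.47 ± 0.08, adjusted p = 3.13e-05) and Orai2 (-0.58 ± 0.09, adjusted p = 2.14e-05), the sensor and a pore of store-operated entry, were the pair that fell in SA. Of 9 extrusion genes, 2 fell in SA, 1 rose and 1 fell in each of SA:ANH and ANH, and 1 fell in RES. Atp2b2, a plasma membrane calcium pump, fell in all 4 subtypes, with log2 fold changes of -0.55 ± 0.04 in SA (adjusted p = 4.81e-12), -0.12 ± 0.04 in SA:ANH (adjusted p = 0.0328), -0.18 ± 0.04 in ANH (adjusted p = 0.0043) and -0.30 ± 0.04 in RES (adjusted p = 6.38e-06). Its SA libraries held 506 to 579 CPM and its NS libraries 729 to 849, with no overlap. The summed excitatory markers were also lower in SA (2744 to 3120 CPM, against 3614 to 4088 in NS, with no overlap), with medians of 3450 in SA:ANH, 3652 in ANH and 3433 in RES against 3827 in NS, and 4 of 6 fell in SA, 3 in SA:ANH, 1 in ANH and 3 in RES, with 1 higher in each of SA:ANH and ANH. The summed layer 6 corticothalamic markers had a median of 82.0 CPM in NS and of 55.3 to 72.6 in the subtypes, and 1 of 6 fell in SA, 3 in SA:ANH, 0 in ANH and 1 in RES. No marker of either list was at 0, and their part in the Atp2b2 result was not tested.

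In Input against NS, the 8 lists gave 9 calls in 240 tests over the 4 subtypes (3.75%), of 60 tests each. There were 3 in SA (5%, against 2.83% of all genes), 1 in SA:ANH (1.67%, against 5.65%), 3 in ANH (5%, against 2.62%) and 2 in RES (3.33%, against 3.23%), so few that they are no result about the lists. They included Cacng3 in SA:ANH (0.18 ± 0.05, adjusted p = 0.0393), Kcnn2 (0.33 ± 0.09, adjusted p = 0.0432) and Atp2b4 (-0.25 ± 0.06, adjusted p = 0.00859) in ANH, and Cacnb3 in RES (0.15 ± 0.04, adjusted p = 0.0376). Cbarp, a negative regulator of the channels that binds beta subunits, was higher in SA (0.22 ± 0.05, adjusted p = 0.0179) and lower in ANH (-0.28 ± 0.05, adjusted p = 0.00169).

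The genes whose levels ran most like each member over the 30 IP libraries were found by Pearson's r of log2 CPM among 8836 genes with a mean of at least 10 CPM. These correlations describe libraries that share groups and scaling. Cacna1h ran most like Nefm, a neurofilament subunit of large axons (r = 0.86, Spearman's rho = 0.86), and Myo5b, a myosin motor (r = 0.84, rho = 0.85). Cacna1g ran most like Dkkl1 (r = 0.81, rho = 0.80) and Sergef (r = 0.76, rho = 0.73), and Cacna1i like Rph3a, a synaptic vesicle protein (r = 0.75, rho = 0.78), and Mprip (r = 0.73, rho = 0.66). Among the high-voltage genes, Cacna1e had the highest such values, with Pgm2l1 (r = 0.75, rho = 0.65) and Srsf1, a splicing factor (r = 0.73, rho = 0.66). For Cacna1a, Cacna1b, Cacna1c and Cacna1d the highest r were 0.62 (Kbtbd11), 0.63 (Rab2b), 0.69 (Rpa1) and 0.61 (Chd8).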

How the data were processed

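The data were 60 RNA-seq libraries, 30 of GFP pulldown RNA and 30 of bulk mPFC RNA, made with SMART-Seq v4 and TruSeq v2 kits and read on a NovaSeq, per the labels' protocols. The authors deposited one table of expected counts, which are estimates and so can hold fractions, a unit read from the values, 88.4% of which were whole within 0.000001. TopHat2 2.0.13, Bowtie2 2.2.3, Trimmomatic 0.32 and the build mm10 are listed, without role or order, per the submitters' processing notes. No source used here gives the counting tool, the strand setting or the treatment of shared reads. The table's positions are not those of mm10, and only RefSeq promoters of GRCm38.p6 were printed as sequence.

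Counts were rounded, filtered with filterByExpr (minimum count 10), scaled by TMM and tested with edgeR 4.0.16 (R 4.3.3; quasi-likelihood, Benjamini-Hochberg at 0.05 over 16670, 18170 and 18937 genes in the IP, Input and joint fits). CPM used the TMM factors of the fit named, and IP against Input was the mean over the 5 groups in the joint fit. The code was tested on simulated counts. SEs were derived from the F statistic, and intervals are 1.96 SE. Depth was 19078928 to 27073456 counts. Libraries of a group differed beyond counting noise in all 150 pairs (chi-square per gene of 7.02 to 23.2), so none was counted as a repeat.

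The 8 members and all lists were chosen with earlier results of these data known. Members were named in every comparison, and from each companion list up to 3 genes with the smallest p in IP against Input and in the tests of any difference, with Cacna1f and overlapping genes named outside that rule. Some genes that the rule covers are not reported here. Likeness named the 2 genes of highest r per member, predicted genes left out. Alternatives were RLE factors, DESeq2 1.42.0, limma voom 3.58.1 with quality weights, no filter, a replicate block and only the 12 libraries compared, and, added after the data were seen, leaving out each of 7 libraries.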

Additional observations from a re-analysis of the deposited data

Results flagged for a closer look

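In 7 of 80 sets of 6 libraries, 1 library lay far from the other 5 of its group by Dixon's test at its 95% critical value of 0.625, where chance gives about 1 in 20. The Cacna1a level of NS_IP replicate 1 was 61.2 CPM, that of Cacna1b in SA_IP replicate 6 was 23.5, that of Cacna1d in SA:ANH_IP replicate 3 was 15.8 and that of Cacna1i in ANH_IP replicate 2 was 35.3. In Input, Cacna1d in SA_Input replicate 6 was at 16.1 CPM, Cacna1g in SA_Input replicate 2 at 41.1 and Cacna1h in SA:ANH_Input replicate 1 at 18.6.

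In 4 cases the difference from NS was unlike in the pulldown and in bulk mPFC by the interaction test. For SA:ANH these were Cacna1g (0.35) and Cacna1h (-0.77), for ANH Cacna1g (0.43) and for RES Cacna1i (-0.51), each as a log2 difference of fold changes. Both Cacna1g calls were lost without the filter on low counts (adjusted p = 0.064 in SA:ANH and 0.0748 in ANH), and that in SA:ANH also with limma voom (0.0613).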

How the results depend on the processing

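Of the results on counts of members, 118 of the values under an alternative stayed within 1.5 times the main count and 7 moved. The interaction calls went from 4 to 2 both without the filter on low counts and with the replicate block. Members called in the test of any difference in Input went from 1 to 3 with DESeq2, to 2 with the replicate block and to 2 without SA:ANH_Input replicate 1. Calls over subtype pairs in Input went from 4 to 1 without the filter and to 2 without SA_Input replicate 2. For single genes, 909 values kept their direction and side of the threshold, 23 lost the call and 4 reversed: Cacna1h in SA against NS in IP gave 0.01 with limma voom and, with 1 library left out, -0.03 to 0.02 (0.02 without NS_IP replicate 1 and without SA_IP replicate 6), and Cacna1a in SA:ANH against NS in IP gave -0.03 to 0.04 with 1 library left out (0.04 without NS_IP replicate 1). None of these values passed its test. The cause of these shifts was not tested. For subtype pairs, IP against Input within groups and interactions, the single-gene tally followed only tests called in the main fit. In those families it could show losses but not gains.

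Without the filter, Cacna1i in ANH against NS in IP also lost its call (adjusted p = 0.0679), as did Cacna1a (0.0616) and Cacna1g (0.0647) in SA against ANH and Cacna1h in SA:ANH against ANH (0.053) in Input. With limma voom, Cacna1a in SA against ANH in Input had an adjusted p of 0.0513 and the interaction of Cacna1g in SA:ANH 0.0613. Within single groups, IP against Input lost the call of Cacna1g in RES (0.0665 with RLE, 0.0648 with DESeq2) and of Cacna1a in NS (0.0936 and 0.0918). Without the filter the median log2 difference of all genes in IP against Input was -0.19, against -0.08 with it.

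Replicate numbers recur across groups, but libraries of equal number did not deviate together. The mean r was 0.004 in IP, 0.016 in Input, and 0.010 between IP and Input of equal group and number. Whether libraries of equal number share an animal or a batch was not stated, and a low mean r cannot decide it. With the replicate block, the Cacna1g interactions in SA:ANH and ANH had adjusted p-values of 0.0733 and 0.06. Depth limits the low genes: Cacna1f could not be tested, and Cacna1s rests on few counts.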
